A study of Mus musculus with 15 samples.

Results

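The comparison described here sets macrophages exposed to tremolite asbestos against macrophages exposed to cleavage fragments of the same mineral. It compares 6 of the 15 RNA-seq libraries of the study, 3 per treatment, chosen by their labels and not by any measured value. Tremolite is an amphibole that occurs either as asbestos, in bundles of long thin fibres, or as massive rock that breaks into prismatic cleavage fragments of the same chemistry. The cells were MPI cells, a non-transformed line of mouse macrophages that renews itself in GM-CSF, derived from female C57BL6/J fetal liver and used as a model of the alveolar macrophage. One group received tremolite asbestos at 5 µg/cm² and the other tremolite cleavage fragments at 60 µg/cm² for 24 h, doses that the labels give as equal in surface area, so the mass on the cells differed. Another 3 libraries, from untreated MPI cells kept in the same GM-CSF medium, are used to place the differences. They and the 6 libraries exposed to another mineral, riebeckite, also count in the gene filter and the fit. There they help set each gene's spread and so the calls. Nothing in the labels tells whether replicate libraries were separate cultures, and the p-values therefore cover only the spread among these samples, possibly a technical one. The cells are 1 line grown alone, without lung epithelium, fibroblasts or recruited leukocytes.

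Alveolar macrophages clear inhaled particles by engulfing them into phagosomes that fuse with lysosomes. Fibres too long to be enclosed leave the cell in a state known as frustrated phagocytosis, in which oxidants, cytokines and proteases can leak out. Known macrophage products of particle exposure include interleukin 1 and TNF, matrix metalloproteases that cut elastin and collagen, heme oxygenase and the mitochondrial enzyme ACOD1, which makes itaconate. Surface-area matching asks whether the fibrous habit of a mineral gives another response than the same mineral surface in another shape.

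Levels are FPKM, fragments scaled to transcript length and library size, which are comparable between genes per length. Differences are asbestos minus fragments in log2(FPKM + 1), a scale on which a low gene's change comes out too small. Testing covered 10616 of 10653 genes, those that reached 0.5 FPKM in 3 or more of the 15 libraries. A gene is called where limma, fitted on all 15 libraries, gave a Benjamini-Hochberg adjusted p under 0.05. Read depth is unknown. Summed FPKM per library lay between 257601 and 266393 in the 6 tremolite libraries. Across genes, Spearman's rho between libraries was 0.989 to 0.991 inside either tremolite group, 0.987 to 0.990 between asbestos and fragments, and 0.978 to 0.982 between either and untreated cells. Pan-macrophage markers summed to 6124 to 7021 FPKM with asbestos and 6092 to 6421 with fragments, and alveolar macrophage markers to 7677 to 8295 and 7973 to 8270. Of the markers of lymphocytes (11), mast cells and basophils (9), hepatocytes (8) and other resident macrophages (11), 0 were among the genes tested. Of 15 fibroblast, epithelium and endothelium markers 2 were tested, summing to 56.8 to 58.3 FPKM with asbestos and 54.7 to 62.4 with fragments. Of 10 dendritic cell markers 2 were tested (14.8 to 17.2 and 16.7 to 17.6 FPKM). Of 9 erythroid markers 1 was tested (3.63 to 4.01 and 4.29 to 4.59 FPKM). None of them was called, and neutrophil markers are given below. Mitochondrially encoded transcripts made up 8.15 ± 0.172% of summed FPKM with asbestos and 8.42 ± 0.281% with fragments (SD, n = 3 each; 8.65 ± 0.181% untreated), a difference within the spread (exact 2-sided permutation p = 0.3, where 0.1 is the smallest that 3 against 3 allows). In bulk RNA, fewer cells with a transcript and less of it per cell cannot be told apart.

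Few genes separated asbestos from fragments. Of 10616 tested, 100 were called (0.942%), of which 41 were higher (0.386%) and 59 lower (0.556%) in asbestos. The differences were small, with a median size of 0.33 among the higher and 0.35 among the lower genes on the log2 scale, and only H2-M2, Mmp8 and Nkiras2 reached 1. All 100 called genes had asbestos and fragment libraries that did not overlap, which was also the case for 17.0% of all genes tested. An unadjusted p under 0.05 was found for 1162 genes (10.9%). Over all genes the median difference was -0.01. The calls lean on single libraries: leaving out each of the 6 tremolite libraries in turn gave 13 to 38 higher and 18 to 54 lower genes, with 13 and 18 without fragment library 1, 15 and 30 without asbestos library 1, 18 and 21 without asbestos library 3, 22 and 21 without fragment library 2 and 24 and 37 without fragment library 3. In all 6 omissions 10 of the higher and 17 of the lower genes stayed called, and the detailed values below centre on these. Only 7 and 8 of them were also called in every other processing setting that tested them. Of the 29 genes called with only the 6 tremolite libraries in the fit, 19 were among the 100. Mmp12, Cxcr2, Siglecf and Rbp4, called in all omissions, lost the call in that fit (limma adjusted p = 0.0578, 0.0578, 0.0559 and 0.0559).

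**Figure D1:**
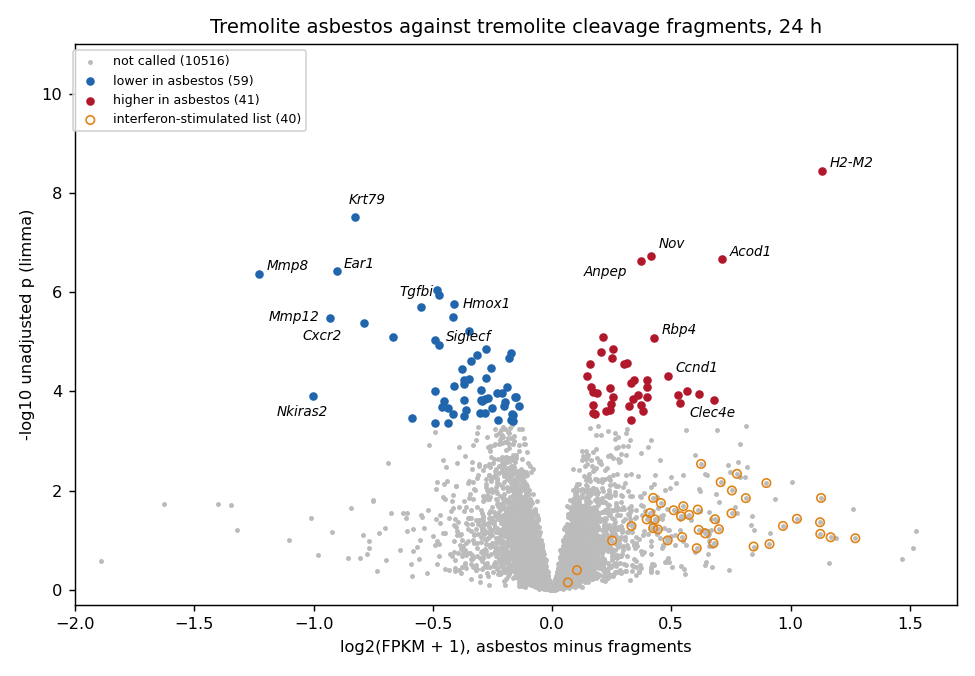
Each of the 10616 genes by its difference between tremolite asbestos and tremolite fragments in log2(FPKM + 1) (x axis) and the unadjusted limma p on a -log10 scale (y axis). The 41 called genes higher in asbestos (red) and 59 lower (blue) are few, H2-M2 and Mmp8 lie farthest out among them, and the 40 interferon-stimulated genes (open circles) lie to the right of 0 without a call.

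The gene with the smallest p was H2-M2, which codes for a class I MHC molecule of the non-classical kind (GRCm38 chr17:37480851-37483552, ENSMUSG00000016283.13). It stood at 24.2, 29.9 and 25.8 FPKM in the asbestos libraries, at 12.5, 10.9 and 11.3 in the fragment libraries, and at 0.778, 0.70 and 0.789 untreated. Both particles thus lay far above untreated cells and asbestos above fragments in every library, by 1.13 (SE 0.0797, limma adjusted p = 3.84e-05). Acod1, which codes for the itaconate-producing enzyme (ENSMUSG00000022126.6, chr14:103046977-103056573), had the same order of groups. Its levels were 8.79, 8.82 and 8.45 FPKM with asbestos, 5.12, 4.97 and 4.63 with fragments and 0.671, 0.790 and 0.669 untreated (0.71, SE 0.0713, limma adjusted p = 0.000507). Rbp4, the carrier of retinol, was at 22.6, 22.4 and 24.0 FPKM with asbestos against 17.8, 15.6 and 17.2 with fragments and 8.97, 8.07 and 9.19 untreated (0.43, SE 0.0598). These 3 genes were above untreated cells with either particle, and farther above with asbestos.

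Other genes higher in asbestos were below untreated cells with both particles, and less far below with asbestos. Nov, the secreted matricellular protein CCN3 (ENSMUSG00000037362.8, chr15:54745702-54754039), stood at 206, 200 and 194 FPKM untreated, at 110, 97.1 and 102 with asbestos and at 77.4, 76.3 and 76.8 with fragments. The fragment libraries were nearly equal and all below the lowest asbestos library (0.42, SE 0.0409, limma adjusted p = 0.000507). Ccnd1, cyclin D1, followed this order with 6.62 ± 0.434 FPKM against 4.45 ± 0.407 and 12.1 ± 0.557 untreated (0.49, limma adjusted p = 0.0148), as did S100a4, a calcium-binding protein, with 139 ± 13.4 against 105 ± 1.83 and 196 ± 1.39 (0.40), and Adgre4, an adhesion receptor of macrophages, with 2.5 ± 0.341 against 1.36 ± 0.266 and 5.85 ± 0.650 (0.57). In another pattern asbestos was close to untreated cells and fragments were lower. Lilr4b and Lilrb4a (ENSMUSG00000112148.1) are neighbouring genes for receptors of myeloid cells. They stood at 134 ± 2.36 and 278 ± 4.89 FPKM with asbestos, 112 ± 1.35 and 233 ± 4.78 with fragments and 135 ± 3.89 and 268 ± 3.85 untreated (both 0.25). Anpep, the aminopeptidase CD13, was at 55.4, 53.9 and 51.2 FPKM with asbestos, 41.1, 42.2 and 39.7 with fragments and 45.7, 42.5 and 45.3 untreated, so asbestos lay above both other groups (0.37, SE 0.0377, limma adjusted p = 0.000507).

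The calls of H2-M2, Acod1, Rbp4, Nov, Anpep, Lilr4b, Lilrb4a, Ahnak, Lrpap1 and Lgmn held without any single library, with limma adjusted p of at most 0.0459. Those of the remaining named rises did not. Mndal (0.68), Mitd1 (0.61), Clec4e (0.54), S100a4 and the membrane protein gene Emp1 (0.40) stayed called in 1 omission each, that of asbestos library 2 for all but Emp1, which stayed called without fragment library 2. Their largest limma adjusted p in the other omissions were 0.0983, 0.0933, 0.124, 0.103 and 0.0825. Adgre4 and the phosphatase gene Ptpro (0.40) lost the call without asbestos library 1 or 3 or fragment library 1 or 2 (up to 0.0936 and 0.0795), and Ccnd1 without asbestos library 1 or fragment library 1 or 3 (up to 0.0694). Mndal, a member of the interferon-inducible p200 family, overlaps Ifi203 and Ifi211 on the same strand, Mitd1 overlaps Lipt1 on the opposite strand, and both Lilr genes overlap the model Gm49339. Ccnd1 overlaps LTO1 and S100a4 overlaps the model Gm42674. Whether the authors' quantification used strand is not given in the sources used here, so these values and those of other near-identical family members are uncertain.

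**Figure D2:**
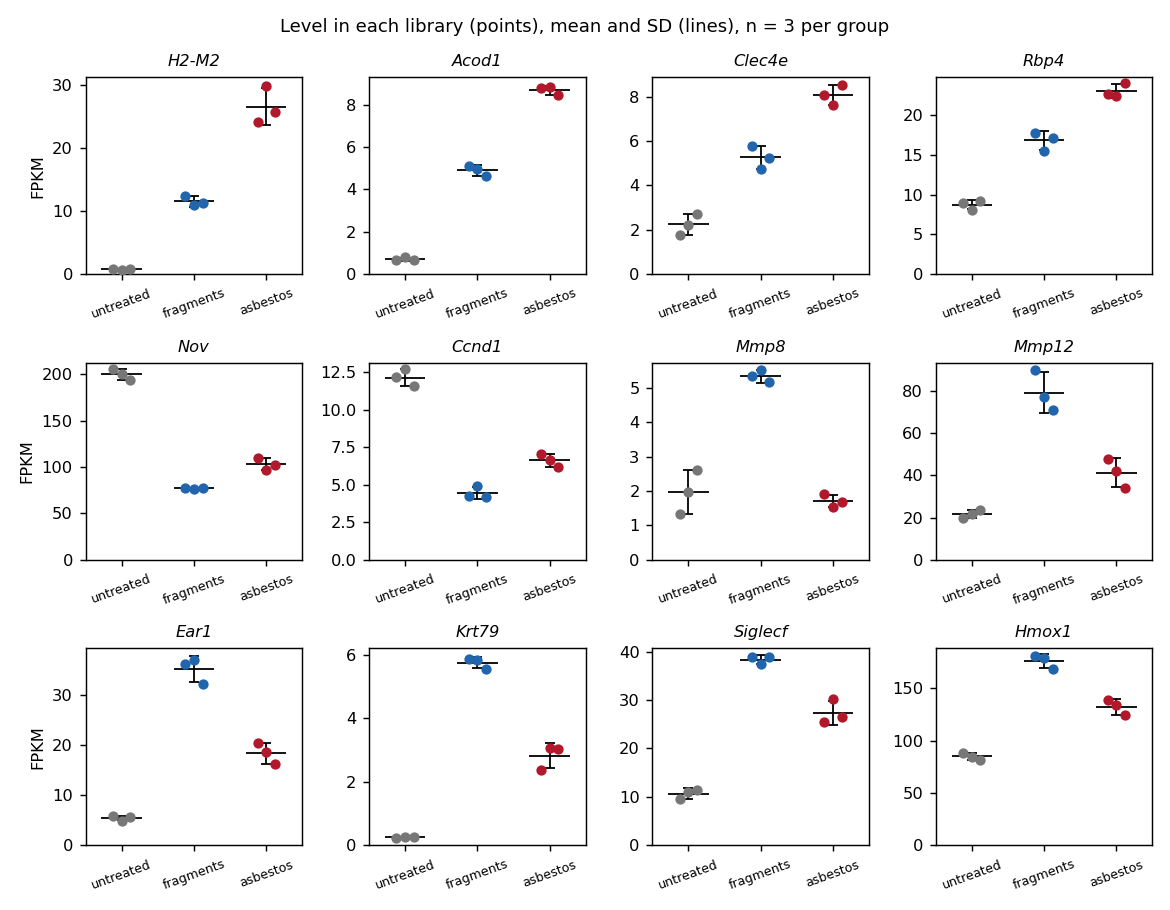
FPKM of 12 named genes in each library of untreated cells, tremolite fragments and tremolite asbestos (points), with mean and SD (lines, n = 3 per group), on axes that start at 0. The 6 genes from H2-M2 to Ccnd1 were higher in asbestos than in fragments and the 6 from Mmp8 to Hmox1 lower, with untreated cells below, above or level with both.

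Among the gene lists with at least 8 tested members, that of matrix proteases and matricellular genes had the largest share of members called in 1 direction. Of 16 tested, 5 were lower in asbestos (31.2%) and 0 higher, beside 0.556 and 0.386% of all genes. Mmp8, Mmp12, Mmp13 and Tgfbi were among them. The median over the 16 was -0.16, beside -0.01 over all genes, and 9 of the 16 had all asbestos libraries below all fragment libraries, beside 9.98% of all genes. Mmp8, a neutrophil-type collagenase (ENSMUSG00000005800.3, chr9:7558456-7568485), was at 1.91, 1.54 and 1.68 FPKM with asbestos and 5.33, 5.52 and 5.16 with fragments, while untreated cells held 1.34, 1.98 and 2.61. The asbestos libraries thus lay within the untreated range and the fragment libraries clear of both (-1.23, SE 0.130, limma adjusted p = 0.00064). Mmp12, the macrophage elastase (ENSMUSG00000049723.14, chr9:7344381-7369499), was at 47.7, 42.1 and 34.1 FPKM with asbestos, 90.1, 77.2 and 71.0 with fragments and 20.03, 21.7 and 23.6 untreated, so all 3 groups were apart (-0.93, SE 0.119, limma adjusted p = 0.00267). Mmp12 overlaps Mmp1b on the opposite strand.

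Mmp13, a collagenase (ENSMUSG00000050578.10, chr9:7272514-7283331), was low throughout, at 0.238, 0.259 and 0.226 FPKM with asbestos, 0.706, 0.764 and 0.626 with fragments and 0.12, 0.214 and 0.136 untreated (-0.45, SE 0.0853, limma adjusted p = 0.0238). Of the libraries given here for Mmp13, only those with fragments reached the 0.5 FPKM of the filter. The group where it was high thus helped it enter the test, and it is 1 of the 5 list members counted as lower. Mmp13, Mmp12 and Mmp8 lie in 1 cluster of metalloprotease genes on chromosome 9. Tgfbi, a secreted matrix protein induced by TGF-beta (ENSMUSG00000035493.10, chr13:56609523-56639562), stood at 12.1, 12.7 and 11 FPKM with asbestos, 17.6, 17.0 and 19.2 with fragments and 3.69, 3.60 and 3.81 untreated (-0.55, SE 0.0671, limma adjusted p = 0.0019). Without any 1 library, Mmp8, Mmp12 and Tgfbi stayed called (limma adjusted p up to 0.016). Mmp13 lost the call in each of the 6 omissions (up to 0.11, without fragment library 2). Over the omissions 3 or 4 members were called lower, 4 of them without asbestos library 2 and 3 without each of the other libraries. Emilin2, an elastin-associated glycoprotein, was at 41.9, 32.6 and 27.8 FPKM with asbestos and 23.6, 23.01 and 20.9 with fragments (0.56, limma adjusted p = 0.0547), and was called higher without asbestos library 3 (0.69, limma adjusted p = 0.0295). Spp1, osteopontin, was among the most abundant transcripts at 1712, 1634 and 1725 FPKM with asbestos and 2038, 1878 and 1952 with fragments (-0.21), without a call (limma adjusted p = 0.0638), and untreated libraries held 702, 665 and 631.

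The promoters of the 4 members with the smallest p are shown because their genes moved together. Each is the 160 bases before the transcript start in RefSeq (GRCm38.p6), 5′ to 3′ on the gene's strand, with matches to the AP-1 letters TGANTCA on either strand in capitals. AP-1 is the Fos and Jun dimer for which such sites in metalloprotease promoters are known.
Mmp8 (chr9:7558269-7558428, plus strand): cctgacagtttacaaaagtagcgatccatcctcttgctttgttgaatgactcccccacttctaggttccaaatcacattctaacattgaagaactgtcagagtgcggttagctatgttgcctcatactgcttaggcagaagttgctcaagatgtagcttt
Mmp12 (chr9:7347214-7347373, plus strand): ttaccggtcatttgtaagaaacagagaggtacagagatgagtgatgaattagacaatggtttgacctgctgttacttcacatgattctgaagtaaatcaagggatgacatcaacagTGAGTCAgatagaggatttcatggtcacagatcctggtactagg
Mmp13 (chr9:7272354-7272513, plus strand): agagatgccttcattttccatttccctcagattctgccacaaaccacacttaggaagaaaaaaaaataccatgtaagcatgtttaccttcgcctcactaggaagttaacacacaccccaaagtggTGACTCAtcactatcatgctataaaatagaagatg
Tgfbi (chr13:56609426-56609585, plus strand): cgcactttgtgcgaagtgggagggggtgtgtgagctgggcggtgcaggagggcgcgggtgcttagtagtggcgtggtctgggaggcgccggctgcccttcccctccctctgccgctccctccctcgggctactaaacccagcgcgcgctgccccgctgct

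Mmp12 holds 1 match that starts 44 bases before the transcript start, and Mmp13 1 match 35 bases before it. Mmp8 and Tgfbi hold 0 matches in the 250 bases before the start. In such windows of 250 bases the letters occur in 6.75% of the 32851 promoters of the table, in 5.24% of the 8373 tested genes with a promoter there, and in 3 of the 9 list members with one (33.3%). They also occur in 12.8% of the genes lower and 17.2% of the genes higher in asbestos with a promoter there, and in 25% of the interferon-stimulated list described below. The matrix list holds the interferon letters GAAANNGAAA in 4 of its 9 promoters (44.4%). A match is a description of the letters and not of a bound site. The deposited intervals of Mmp12 and Tgfbi begin upstream of the RefSeq starts used here.

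Of 22 tested alveolar macrophage markers, 3 were lower in asbestos, Ear1, Krt79 and Siglecf, and 1 was higher, Fabp4 (13.6 and 4.55%, beside 0.556 and 0.386% of all genes). Ear1, an eosinophil-associated ribonuclease (ENSMUSG00000072601.4, chr14:43818765-43875517), stood at 20.4, 18.7 and 16.2 FPKM with asbestos, 36.4, 37.1 and 32.3 with fragments and 5.76, 4.94 and 5.66 untreated. All fragment libraries lay above all asbestos libraries, and untreated cells were far below both (-0.90, SE 0.0947, limma adjusted p = 0.00064). Reads of Ear1 can be shared with near-identical family members and with pseudogenes in its interval. Krt79, a keratin expressed by alveolar macrophages (ENSMUSG00000061397.7, chr15:101929332-101940324), was at 2.39, 3.07 and 3.02 FPKM with asbestos, 5.86, 5.85 and 5.56 with fragments and 0.233, 0.261 and 0.272 untreated (-0.82, SE 0.0695, limma adjusted p = 0.000162). Siglecf, a sialic acid receptor that defines alveolar macrophages (chr7:43351341-43359531), was at 25.5, 30.2 and 26.6 FPKM against 38.8, 37.4 and 38.9 with fragments and 9.50, 11.1 and 11.5 untreated (-0.47, SE 0.0681, limma adjusted p = 0.00604). These 3 genes kept their calls in all 6 omissions.

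Fabp4, a fatty acid carrier, took the opposite course within the same list, at 60.7, 56.1 and 65.3 FPKM with asbestos, 46.1, 46.8 and 52.0 with fragments and 97.4, 93.8 and 95.8 untreated (0.32, SE 0.0626, limma adjusted p = 0.0272). Its call was lost without asbestos library 1 or 3 or fragment library 1 or 2 (limma adjusted p up to 0.127). The other 18 alveolar markers were not called. Of 13 neutrophil markers 3 were tested, Mmp8, Cxcr2 and S100a8, with a summed level of 38.7 to 48.0 FPKM with asbestos, 41.8 to 45.0 with fragments and 30.8 to 35.1 untreated; a part of neutrophil-like cells in these levels was not tested. Ly6g, Elane, Mpo and the other 7 were not among the genes tested. Cxcr2, a receptor of neutrophil-attracting chemokines, was at 4.6, 6.17 and 5.70 FPKM with asbestos, 9.27, 9.81 and 11.5 with fragments and 2.45, 2.61 and 2.46 untreated (-0.79, SE 0.103, limma adjusted p = 0.00322), called in all 6 omissions. S100a8 was at 35.3 ± 5.39 FPKM against 28.1 ± 1.53 (0.31, limma adjusted p = 0.171).

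In the Nrf2 and glutathione list 2 of 27 members, Hmox1 and Cat, were called lower, beside 0.556% of all genes, and 0 higher (median -0.07). The lowest difference of the list was that of Gpx1, a glutathione peroxidase (-0.69), without a call (limma adjusted p = 0.742). Hmox1, which breaks down heme (ENSMUSG00000005413.8, chr8:75093621-75100589), was at 139, 134 and 124 FPKM with asbestos, 181, 179 and 168 with fragments and 88.6, 84.2 and 82.0 untreated (-0.41, SE 0.0496, limma adjusted p = 0.00188). Cat, which removes hydrogen peroxide, was at 75.2 ± 1.13 FPKM against 85.5 ± 2.09 and 70.7 ± 1.36 untreated (-0.18, limma adjusted p = 0.00852). Both calls held in the 6 omissions. Slc7a11, the cystine importer, was at 3.45, 3.78 and 3.50 FPKM against 4.33, 4.27 and 3.91 with fragments (-0.17), without a call (limma adjusted p = 0.238). Hmox1 was also the 1 called member of the 16 tested iron and heme genes (6.25%, beside 0.556% of all genes called lower).

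Further genes lower in asbestos that stayed called in every omission lay outside these lists. Srgn, the granule proteoglycan serglycin, was at 3.74, 3.06 and 3.32 FPKM with asbestos, 6.05, 6.17 and 5.59 with fragments and 2.74, 2.75 and 3.75 untreated (-0.67, SE 0.0929, limma adjusted p = 0.00492). Procr, the endothelial protein C receptor, was at 4.54 ± 0.680 FPKM against 6.75 ± 0.188 and 2.52 ± 0.10 untreated (-0.49). Of the genes named after their values were seen, Icosl, the ligand of the T cell costimulator ICOS, was at 7.20 ± 0.233 against 10.5 ± 0.433 and 3.04 ± 0.147 untreated (-0.48, limma adjusted p = 0.0012), Pkp2, plakophilin 2, at 4.08 ± 0.218 against 6.06 ± 0.213 and 2.06 ± 0.152 (-0.47), and Acaa1b, a peroxisomal thiolase, at 40.1 ± 1.07 against 51.3 ± 2.85 and 26.0 ± 1.51 (-0.35). In these 5 genes the fragment libraries were the highest of the 3 groups without overlap. Among the largest falls, Nkiras2, which codes for an IkB-interacting Ras-like protein, was at 2.36, 2.71 and 2.47 FPKM with asbestos, 5.82, 6.40 and 5.92 with fragments and 2.89, 2.65 and 2.74 untreated (-1.0, SE 0.185, limma adjusted p = 0.0223). It overlaps Dnajc7 and Zfp385c on the opposite strand, as Acaa1b overlaps Dlec1. Nkiras2, Npff (-0.59), Vash1 (-0.49) and Uchl1 (-0.49) stayed called only without asbestos library 2, with limma adjusted p of up to 0.0948, 0.163, 0.0936 and 0.194 in the other 5 omissions.

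In the fit of all 15 libraries, lysosome genes were the list with the most members called higher in asbestos, 4 of 44, beside 0.386% of all genes, and 0 lower, with a median of 0.03. They were Lgmn, the asparaginyl protease (225 ± 8.2 FPKM against 195 ± 3.64, and 256 ± 7.38 untreated, 0.20, limma adjusted p = 0.00748), the cathepsin genes Ctsc (199 ± 12.7 against 170 ± 2.97, and 262 ± 6.88 untreated, 0.23) and Ctsk (1282 ± 60.0 against 1082 ± 53.5, and 806 ± 48.2 untreated, 0.24), and Atp6v0a1, a subunit of the proton pump (41.0 ± 0.667 against 36.5 ± 1.09, and 44.8 ± 0.924 untreated, 0.16). Ctsk was thus above untreated cells with either particle, and the other 3 below. Lgmn alone held in all omissions. Ctsc stayed called only without asbestos library 2, Ctsk only without asbestos library 2 or fragment library 1, and Atp6v0a1 was lost without asbestos library 3 or fragment library 1 or 3 (limma adjusted p up to 0.147, 0.141 and 0.0902). With the 6 riebeckite libraries left out of the fit, 1 lysosome gene was called higher, and with only the 6 tremolite libraries 0.

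Surface receptors for particles and microbes moved in both directions. Of 27 tested scavenger, lectin and pattern receptors, 2 were higher in asbestos and 2 lower (7.41% each, beside 0.386 and 0.556% of all genes), with a median of -0.0029. Clec4e, the lectin Mincle, was at 8.08, 7.61 and 8.55 FPKM with asbestos, 5.78, 4.76 and 5.25 with fragments and 1.78, 2.24 and 2.73 untreated (0.54, SE 0.102, limma adjusted p = 0.0248). Msr1, scavenger receptor A, was at 28.3 ± 0.426 against 24.7 ± 0.848 (0.19, limma adjusted p = 0.0213). Lower were Trem1, an amplifying receptor of myeloid cells, at 3.87 ± 0.0247 against 5.60 ± 0.636 (-0.44, limma adjusted p = 0.0283), and Olr1, the receptor of oxidised LDL, at 202 ± 2.68 against 232 ± 9.54 (-0.20, limma adjusted p = 0.0241). Each of these 4 calls was lost in at least 4 omissions: Clec4e and Msr1 held only without asbestos library 2 and fragment library 2 respectively, Trem1 only without fragment library 3, and Olr1 only without asbestos library 2 or fragment library 3 (limma adjusted p up to 0.124, 0.0933, 0.14 and 0.115).

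Placed against untreated cells, most differences were of degree. The untreated mean lay below both particle groups for 52 of the 59 genes lower in asbestos, between them for 7 and above both for 0, beside 34.0, 17.6 and 48.4% of all genes tested. In 49 of the 59 both particle groups were above untreated cells without overlap, beside 12.5% of all genes. For the 41 genes higher in asbestos the untreated mean was above both for 21, between for 10 and below both for 10. In 17 of them both particle groups were below untreated cells without overlap, beside 18.2% of all genes. Fragments were farther from untreated cells than asbestos in 56 of the 59 lower genes and in 24 of the 41 higher genes. That order is largely fixed by the placement above and adds little to it. A lower gene with untreated cells below both has fragments farther, as does a higher gene with untreated cells above both. The 2 comparisons with untreated cells share the untreated libraries, so these counts place the called genes and carry no test.

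**Figure D3:**
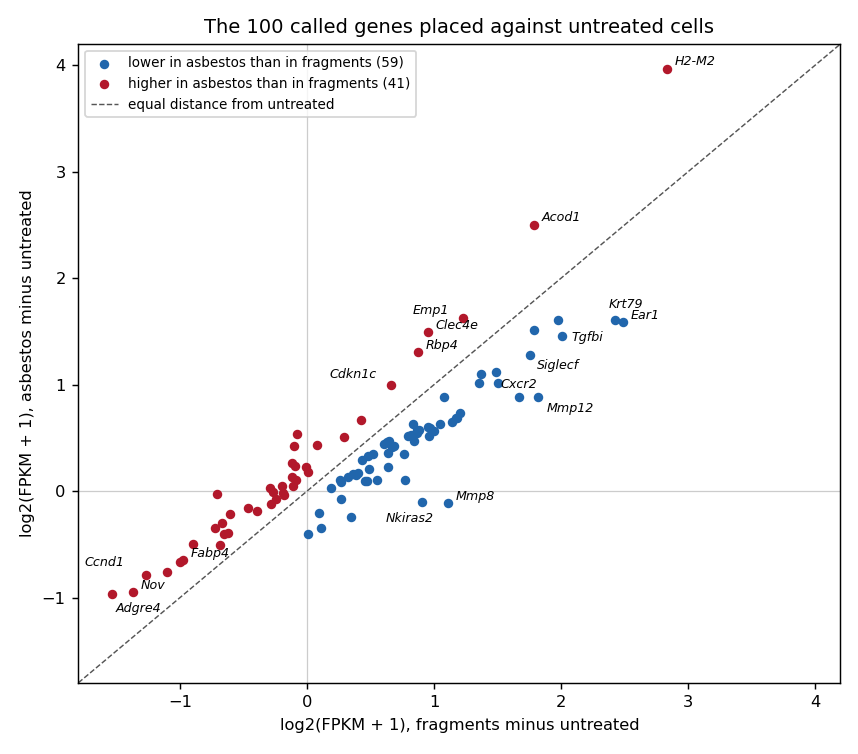
The 100 called genes by their difference from untreated cells in log2(FPKM + 1), with tremolite fragments on the x axis and tremolite asbestos on the y axis; the dashed line marks equal distance and each axis uses the same untreated libraries. Genes lower in asbestos (blue, 59) lie mostly to the right of 0, and genes higher in asbestos (red, 41) include H2-M2 and Acod1 at the top and Nov, Ccnd1 and Adgre4 below 0.

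Interferon-stimulated genes code for antiviral proteins induced by interferon receptor signalling. Of 44 listed, 40 were tested, and 37 of these had all 3 asbestos libraries above all 3 fragment libraries, beside 7.04% of all genes. The median difference was 0.62, with a range of 0.07 to 1.27, yet 0 of the 40 were called by limma in the fit of all 15 libraries, and 21 had an unadjusted p under 0.05. Against untreated cells the list's median was 0.71 with asbestos and 0.09 with fragments, and 36 and 10 members had libraries entirely above the untreated ones, beside 15.9 and 19.6% of all genes. The mean log2(FPKM + 1) over the list was 3.90, 3.98 and 4.29 in the asbestos libraries, 3.31, 3.35 and 3.54 in the fragment libraries and 3.38, 3.29 and 3.35 untreated, so asbestos lay above both other groups and asbestos library 3 was the highest.

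The fit estimates 1 spread per gene over all 5 groups. Over the list, the median SD within a group was 0.208 with tremolite asbestos and 0.124 with tremolite fragments, but 0.545 and 0.456 with riebeckite asbestos and riebeckite fragments, whose library means ran from 2.65 to 3.89 and from 2.60 to 3.65. In an alternative chosen after seeing the data, the 6 riebeckite libraries were left out of the fit. Then 21 of the 40 were called higher in asbestos and 0 lower, beside 0.801 and 0.518% of all genes (85 and 55 genes, together 1.32%, of which 75 were among the 100 above). With only the 6 tremolite libraries in the fit, 2 were called, Irf7 and Oas2, beside 0.160% of all genes. Without asbestos library 3 the median difference was 0.53, and over all 6 omissions it was 0.53 to 0.70.

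**Figure D4:**
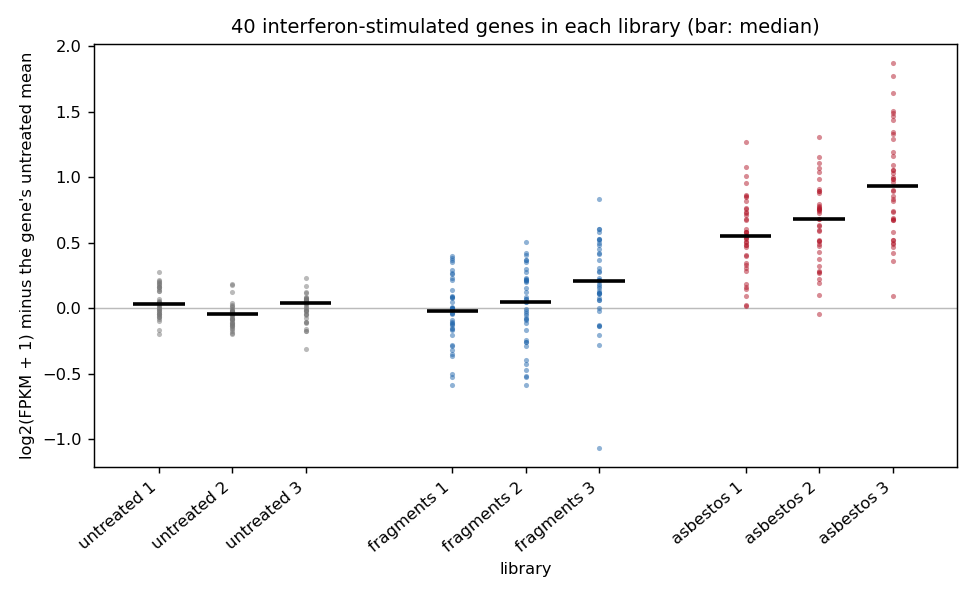
Levels of the 40 tested interferon-stimulated genes in each library (points), as log2(FPKM + 1) minus the gene's mean in untreated cells, with the median of each library as a bar. The medians of all 3 asbestos libraries lie above those of the 3 fragment libraries, which lie around the untreated level, and asbestos library 3 is the highest.

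The ubiquitin-like modifier gene Isg15 was at 43.6, 44.6 and 58.2 FPKM with asbestos, 21.5, 21.1 and 31.2 with fragments and 20.8, 18.9 and 20.7 untreated (0.97, SE 0.45, limma adjusted p = 0.463, and 0.0244 without the riebeckite libraries). Zbp1, a sensor of Z-form nucleic acids, was at 18.6, 21.5 and 32.3 against 12.8, 13.4 and 13.7 (0.78, limma adjusted p = 0.171), and Phf11d at 2.15, 2.75 and 3.54 against 1.27, 1.21 and 1.45 (0.71, limma adjusted p = 0.2). Mx1, an antiviral GTPase, was at 1.51, 1.51 and 2.37 with asbestos and 0.829, 0.643 and 0.930 with fragments, and its untreated levels of 1.71, 1.29 and 1.09 overlapped those of asbestos (0.62, limma adjusted p = 0.135). The 4 members with the largest differences, named after their values were seen, were Ifit3 (1.27), Ifit1 (1.17), Oas3 (1.13) and Ifit2 (1.13). Ifit proteins bind foreign RNA and Oas enzymes make the messenger that activates RNase L. Ifit1 was at 28.6, 35.5 and 49.2 FPKM with asbestos, 13.8, 15.1 and 19.1 with fragments and 16.1, 12.6 and 12.7 untreated (limma adjusted p = 0.553, and 0.0287 without the riebeckite libraries). Reads can be shared within the Ifit, Oas, Gbp and Slfn families, so single members are uncertain.

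The promoters of these 4 genes are shown since they led the list. Each is the 160 bases before the RefSeq transcript start (GRCm38.p6) on the gene's strand, with matches on either strand to GAAANNGAAA, letters of the interferon-stimulated response element (ISRE), in capitals. The ISRE is known as a promoter element through which interferons act.
Ifit3 (chr19:34583369-34583528, plus strand): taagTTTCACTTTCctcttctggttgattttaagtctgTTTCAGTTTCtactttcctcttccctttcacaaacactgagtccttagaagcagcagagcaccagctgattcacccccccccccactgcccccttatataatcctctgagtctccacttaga
Ifit1 (chr19:34640729-34640888, plus strand): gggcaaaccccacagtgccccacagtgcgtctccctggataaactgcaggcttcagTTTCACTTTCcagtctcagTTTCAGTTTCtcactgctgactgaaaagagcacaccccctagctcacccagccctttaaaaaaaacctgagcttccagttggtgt
Oas3 (chr5:120777660-120777819, minus strand): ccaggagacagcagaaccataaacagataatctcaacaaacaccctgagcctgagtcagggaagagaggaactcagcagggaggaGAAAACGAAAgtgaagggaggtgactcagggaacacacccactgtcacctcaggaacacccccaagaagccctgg
Ifit2 (chr19:34550534-34550693, plus strand): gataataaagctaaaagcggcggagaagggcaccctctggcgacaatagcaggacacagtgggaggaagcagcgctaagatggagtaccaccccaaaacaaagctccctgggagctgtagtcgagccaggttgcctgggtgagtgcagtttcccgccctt

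Ifit3 holds matches that start 122 and 156 bases before the transcript start, Ifit1 85 and 104 bases before it and Oas3 75 bases before it, while Ifit2 holds 0 in the 250 bases before the start. In windows of 250 bases the letters occur in 2.98% of all promoters in the table, in 3.38% of the tested genes with one, and in 19 of the 32 tested list members with one (59.4%). Among the 41 called genes higher in asbestos, 29 have a promoter in the table, and 3 of these (10.3%) hold the letters, as do 5 of the 39 promoters of genes lower in asbestos (12.8%).

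MHC and antigen presentation genes also leaned toward asbestos. All 23 tested members had a positive difference, beside 44.8% of all genes, with a median of 0.20, and 13 had asbestos libraries entirely above fragment libraries, beside 7.04% of all genes, but H2-M2 was the 1 member called. Outside the list, the MHC gene H2-Oa and the antigen-presenting gene Cd1d1, named after their values were seen, were called lower. Their differences were -0.36 (limma adjusted p = 0.0305) and -0.30 (limma adjusted p = 0.0232), and each call was lost in 5 omissions. Psmb9, a subunit of the immunoproteasome, was at 7.07, 4.30 and 4.68 FPKM against 3.22, 3.48 and 3.13 (0.55, limma adjusted p = 0.171), and H2-T23, the mouse Qa-1 gene, at 53.9, 51.9 and 58.0 against 42.5, 43.6 and 43.2 (0.33, limma adjusted p = 0.171). Without the riebeckite libraries 3 members were called. Of 9 complement and acute phase genes 0 were called by limma, with 4 at an unadjusted p under 0.05. C3ar1, the receptor of C3a, was at 36.5, 29.0 and 23.9 FPKM against 19.8, 18.2 and 15.7 (0.69, limma adjusted p = 0.0547). While 7 of the 9 had a positive difference, C5ar1 was lower without overlap, at 22.1, 22.8 and 20.4 FPKM against 26.5, 28.2 and 28.6 (-0.34, limma adjusted p = 0.905). It was called lower without the riebeckite libraries (limma adjusted p = 0.0181). Among 17 STAT5 and SOCS genes, which act downstream of the GM-CSF receptor, Ccnd1 was the 1 called, higher (5.88%, beside 0.386% of all genes). The list was mixed, with 9 positive differences, a median of 0.03 and a lowest difference of -0.34. Asbestos libraries lay entirely above fragment libraries in 6 members and entirely below in 4, beside 7.04 and 9.98% of all genes. Cish and Socs3, inhibitors of cytokine signalling, were at 6.68, 8.70 and 6.72 against 4.80, 5.45 and 5.02 (0.45, limma adjusted p = 0.124) and at 11.3, 10.8 and 11.2 against 7.48, 9.17 and 7.89 (0.40, limma adjusted p = 0.0865).

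The lists of inflammatory cytokines and of NF-kB genes held no called member. Of 19 inflammatory cytokines and chemokines 0 were called by limma (5 at an unadjusted p under 0.05), with a median of 0.01. Against untreated cells, however, the list's medians were 0.37 with asbestos and 0.35 with fragments. Outside the list the chemokine gene Cx3cl1, named after its values were seen, was called lower (-0.35, limma adjusted p = 0.0157). That call stayed in only 2 omissions (limma adjusted p up to 0.0761 in the others). Il1b was at 23.8, 27.0 and 25.3 FPKM with asbestos and 21.05, 21.8 and 24.7 with fragments, beside 9.37, 11.1 and 12.1 untreated (0.17, limma adjusted p = 0.532). Tnf was at 16.3, 16.0 and 16.5 against 12.4, 14.96 and 14.6, beside 6.19, 7.64 and 7.79 untreated (0.21, limma adjusted p = 0.578), and Il1a at 104, 109 and 110 against 105, 109 and 113 (-0.02). Cxcl2, a neutrophil chemokine, was at 4.78, 4.46 and 4.26 against 6.04, 6.93 and 6.62 without overlap (-0.45), short of the threshold (limma adjusted p = 0.206, and 0.03 without the riebeckite libraries). Ccl2, a monocyte chemokine, stayed near 1 FPKM or below (0.49, limma adjusted p = 0.489). Of 23 NF-kB subunits and feedback genes 0 were called (2 at an unadjusted p under 0.05), and Nfkbia, the inhibitor IkB-alpha, was at 43.9 ± 0.766 FPKM against 46.4 ± 2.66 (-0.08).

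DNA replication (48 genes) and mitosis (35) had 0 members called, with 2 and 1 at an unadjusted p under 0.05 and medians of -0.01 and -0.03. Their medians against untreated cells were -0.32 and -0.07 with asbestos and -0.30 and -0.04 with fragments. Mki67, a proliferation marker, was at 76.9, 91.8 and 83.9 FPKM with asbestos and 88.8, 88.5 and 89.7 with fragments (-0.08, limma adjusted p = 0.737). Of 24 p53 targets 0 were called, with 11 at an unadjusted p under 0.05 (10.9% of all genes), a median of -0.11 and 9 members with asbestos libraries entirely below fragment libraries (9.98% of all genes). The cell cycle inhibitor Cdkn1a was at 78.7, 71.9 and 72.5 FPKM against 79.1, 81.3 and 81.1 (-0.11, limma adjusted p = 0.325), and the stress cytokine Gdf15 at 4.30, 5.05 and 5.94 against 5.85, 8.15 and 7.17 (-0.40, limma adjusted p = 0.22). Among 19 inflammasome genes Naip2, a sensor of bacterial proteins, was lower (50.6 ± 0.402 against 55.9 ± 1.20 FPKM, -0.14, limma adjusted p = 0.0272). Its call was lost in each omission (up to 0.118). Nlrp3 was at 8.87, 9.65 and 8.38 against 7.80, 10.5 and 7.33 (0.08). Inhba, a subunit of activin A, was at 13.8, 17.6 and 14.2 against 19.8, 19.7 and 17.4 (-0.31, limma adjusted p = 0.135). Of 21 immediate early genes Fosl2, a partner of Jun in AP-1, was called lower (13.6 ± 0.443 against 16.2 ± 0.881, -0.23, limma adjusted p = 0.0212), and lost the call without asbestos library 1 or 3 or fragment library 1 or 2 (up to 0.102). Of 21 lipid efflux, LXR and PPAR genes, Fabp4 was higher and Angptl4, an inhibitor of lipoprotein lipase, lower (26.5 ± 0.877 against 30.0 ± 0.716, -0.17, limma adjusted p = 0.0333). Angptl4 stayed called only without asbestos library 1 (limma adjusted p up to 0.159). The 1 member called lower made up 5.26% of the inflammasome list and 4.76% of the immediate early and lipid lists, beside 0.556% of all genes. The 1 lipid gene called higher made up 4.76%, beside 0.386% of all genes.

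**Figure D5:**
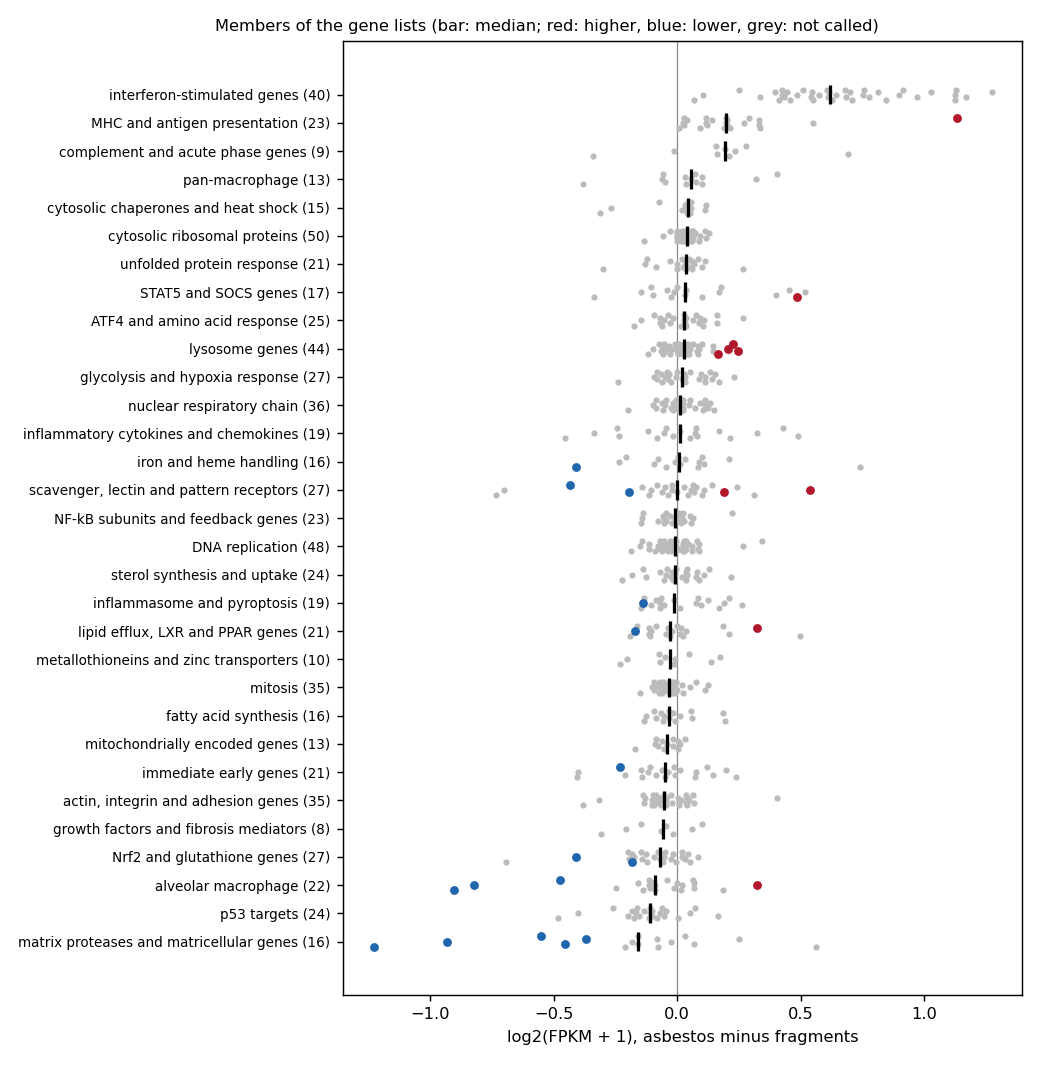
Difference between tremolite asbestos and tremolite fragments in log2(FPKM + 1) for each tested member of the gene lists with at least 8 tested members (points; number in brackets), with the list's median as a bar. Red points were called higher in asbestos, blue points lower and grey points not called. The interferon-stimulated list stands farthest to the right with a median of 0.62, and the matrix list holds 5 of the blue points.

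In the deposited transcript table, 11 of 22038 transcripts were called higher in asbestos (0.0499%) and 16 lower (0.0726%). Of these 27, 18 belonged to a gene called in the same direction, but 9 of the 27 are the only deposited transcript of their gene and so repeat its measurement. Of the 100 called genes, 18 had a called transcript. For H2-M2 the transcript H2-M2-202 was at 16.3, 22.4 and 20.9 FPKM with asbestos and 8.17, 6.79 and 8.24 with fragments (1.25, limma adjusted p = 0.0018), and H2-M2-201 at 10.6, 11.1 and 8.32 against 5.64, 5.26 and 4.37 (0.85, limma adjusted p = 0.0684), so both deposited transcripts were higher with asbestos in every library. Clec4e-201 was at 9.46, 8.69 and 9.92 against 3.84, 5.46 and 5.88 (0.79, limma adjusted p = 0.0368). Among named genes with 1 deposited transcript, those of Mmp8, Krt79, Hmox1, Nov, Acod1 and Tgfbi were called, and those of Ccnd1 (limma adjusted p = 0.117), Adgre4 (0.204), Mmp13 (0.221), Vash1 (0.239) and Uchl1 (0.814) were not. Mmp12, Cxcr2, Rbp4, Srgn and Nkiras2 have several, of which none of those tested was called (smallest limma adjusted p = 0.834, 0.506, 0.901, 0.326 and 0.101).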

How the data were processed

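RNA was profiled in MPI cells, with 3 libraries per group. Per the submitters' processing notes the tools included HISAT2, StringTie and cutadapt, and the build was GRCm38; versions, settings, strand use and annotation release: not given in the sources used here. Per the labels' protocols, oligo(dT) beads selected the mRNA and dUTP marked the second strand. The authors deposited gene and transcript tables whose unit, FPKM, was inferred from the values. They hold no counts, so depth is unknown. FPKM are relative within a library, so abundant transcripts move the rest. Here log2(FPKM + 1) was fitted by group over 15 libraries in limma 3.58.1 (R 4.3.3) with a mean-variance trend, and 2-sided p were adjusted by Benjamini-Hochberg over all features tested.

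The members and lists were chosen with earlier results of these data known. Named by rule were the 12 largest rises and 12 largest falls among called genes whose groups did not overlap (at 1 FPKM or more on average in the higher group, without predicted or clone symbols), the 4 smallest p of each list, and a fixed set of inflammatory, stress and growth genes; genes outside it were chosen after their values were seen. The lists were 29 of pathways and 10 of markers. Some items are not reported here. Symbols with more than 1 entry were kept apart by identifier. Alternatives were TMM rescaling, quantile normalization, a pseudocount of 0.1, no filter, a stricter filter at 5 FPKM, a replicate block, only the 6 tremolite libraries, no trend, and each library left out. Promoters came from the RefSeq table (GRCm38.p6), which held 68 of the 100 called genes, and overlaps from GENCODE M21. The code was tested on simulated data.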

Additional observations from a re-analysis of the deposited data

How the results depend on the processing

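The higher and lower gene counts of 41 and 59 stayed within 1.5 times under TMM rescaling (45 and 51), quantile normalization (44 and 68), a pseudocount of 0.1 (36 and 57), no filter on low values (42 and 61), a mean of at least 5 FPKM (37 and 50), the replicate block (43 and 56) and no mean-variance trend (36 and 53). Dropping the filter could change little, since it raised the genes tested only from 10616 to 10653. With only the 6 tremolite libraries in the fit the counts were 17 and 12, where fewer libraries set the spread. Without the riebeckite libraries, chosen after seeing the data, they were 85 and 55, which moved the higher share of calls from 41 to 60.7%. Leaving out 1 tremolite library gave 13 to 38 and 18 to 54. Over all genes, replicate numbers did not pair the libraries: same-numbered asbestos and fragment libraries deviated with correlations of -0.0126, -0.0494 and 0.0693. In the interferon-stimulated list, means of log2(FPKM + 1) rose from library 1 to 3 in both tremolite groups (3.90, 3.98 and 4.29, and 3.31, 3.35 and 3.54). With riebeckite asbestos they were 3.29, 3.89 and 2.65, and with riebeckite fragments 2.69, 3.65 and 2.60. Whether same-numbered libraries share a source of spread there was not tested. Not every library correlated best with its own number.

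Of transcripts, 11 were higher and 16 lower. A mean of at least 5 FPKM gave 18 higher, the replicate block 7 and 9, no trend 9 lower, no riebeckite libraries 10 lower, and the omissions 7 to 19 higher and 9 to 22 lower; the cause was not tested. Signs turned only for uncalled genes: Il1a ran from -0.044 to 0.0086 over the omissions (positive without asbestos library 1, 0.0061, or fragment library 3, 0.0086), and Nlrp3 from -0.0128 (without fragment library 3) to 0.217. Of the other values for the 100 called and the named uncalled genes over all settings, 1403 kept direction and side of the threshold, 480 lost the call and 14 gained one. The mitochondrial share difference, -0.27 percentage points, was -0.17 to -0.43 in the omissions and -0.0874 with 5 mitochondrial genes.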

Other observations

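Several called transcripts belonged to genes whose summed level was not called. Map6, a microtubule-associated protein gene, was at 2.92, 2.97 and 2.28 FPKM with asbestos and 2.33, 3.30 and 2.04 with fragments as a gene (0.08, limma adjusted p = 0.867). Its transcript Map6-202 was at 0.0113, 0.0247 and 0.0080 FPKM with asbestos, 5.55, 7.46 and 6.02 with fragments and 0.0242, 0.0879 and 0.0197 untreated (-2.85, limma adjusted p = 8.9e-08). Map6-206 was at 10.3, 10.7 and 7.62 FPKM with asbestos and 0.000646, 0.000345 and 0.00103 with fragments, and at 9.41, 8.25 and 10.1 untreated (3.39, limma adjusted p = 4.87e-08). Of the 9 libraries given, the 3 fragment libraries were thus high in Map6-202 and low in Map6-206, 2 of the 3 deposited transcripts of the gene.

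Hipk1-201, of a nuclear kinase gene, was at 2.26, 2.14 and 2.46 FPKM with asbestos, 11.2, 14.4 and 15.7 with fragments and 11.7, 12 and 11.7 untreated (-2.16, limma adjusted p = 7.94e-07), while the gene Hipk1 differed by -0.02. Ncaph2-201, of a condensin subunit gene, was at 11.7, 12.3 and 13.1 FPKM with asbestos, 1.91, 2.29 and 3.76 with fragments and 1.86, 4.04 and 1.95 untreated (1.90, limma adjusted p = 0.0151), while the gene Ncaph2 differed by -0.05. Of the deposited transcripts, 18.9% were listed at 0 in at least 1 of the 15 libraries, and an exact 0 can be a failed estimate. Whether the splitting of reads among transcripts has a part in these values was not tested.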
